A study of Saccharomyces cerevisiae with 30 samples.

Results

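The weak stall windows of wild type cells in hydroxyurea (HU) are stretches of the budding yeast genome where replication forks held in HU gave a signal above the genome's average but well below that of the strongest sites. They were chosen from the deposited windows, each 2000 bp long and placed every 200 bp. The mean of the 2 wild type HU block libraries in a window was divided by its mean over all windows, 142 RPM (reads per 1000000 mapped reads). A member had a ratio from 1.5 to under 6, had no window of ratio 6 or more (a strong window) with its midpoint within 10 kb, and lay more than 30 kb from both chromosome ends. This gave 2298 members of 60303 windows (3.81%), beside 2442 strong windows. Because wild type signal in the HU block chose the members, its level in them is given as a description, without a test, and so is every difference from it.

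The study asked how the binding of the checkpoint kinase Rad53 to replication proteins affects forks that stall in HU and then restart. It used TrAEL-seq, which captures free 3′ ends of genomic DNA and so gives the position of forks in a population of *Saccharomyces cerevisiae* cells. Cells were arrested in G1 phase with alpha factor, released into YPD with 200 mM HU, and collected in HU (the HU block) or 20 or 40 min after the HU was removed. The strains were *mrc1-AQ cdc45-2A pol1-1A* (the triple mutant), *mrc1-AQ cdc45-2A* (the double mutant), *pol1-1A* and wild type (wt), with 2 libraries for each strain and time, 24 in all. Another 6 libraries came from 2 preparations of asynchronous wild type cells, without HU, of which 3 shares each were spiked into the library pools. Each group was 1 strain, and the window values do not allow the mutations to be checked.

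Replication starts at origins, and 2 forks leave each origin in opposite directions. HU inhibits ribonucleotide reductase, so that forks slow for want of dNTPs near the origins that fire early, while the Mec1-Rad53 checkpoint holds back origins that have not yet fired. Rad53 binds Mrc1, a replisome factor that relays the checkpoint signal, Cdc45, a subunit of the replicative helicase, and Pol1, the catalytic subunit of polymerase alpha. The alleles used here weaken these contacts, *pol1-1A* for Pol1, *mrc1-AQ* for Mrc1 and *cdc45-2A* for Cdc45.

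The 24 libraries held 2974768 to 10460920 mapped reads each, with 70.9% to 96.6% of them inside the windows, and the spike-in libraries held 317539 to 1333846. No member window had fewer than 172 reads in any of the 24 libraries, and the median member window had between 697 and 5970 reads. Replicates differed in their level between the peaks: the median over all windows was 84.2 RPM in the first and 18.3 RPM in the second *pol1-1A* HU block library. RPM is a share of the reads of a library, so that a site with forks in fewer cells and a site with fewer captured ends per cell cannot be told apart.

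Members were found on all 16 chromosomes. Of the members, 624 had a wild type HU ratio under 2, 1371 a ratio from 2 to under 4, and 303 a ratio from 4 to under 6. A further 4247 windows had a ratio in this range but lay within 10 kb of a strong window. The lowest member ratio was 1.5002, and the highest ratio below the limit that met the distance rules was 1.4994. At the other side, the highest member ratio was 5.95 and the lowest ratio of a strong window was 6.00. The limits thus divide a continuous range and mark no gap.

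Neighbouring members, with midpoints up to 2 kb apart, joined into 109 stretches of 1 to 57 windows, with a median of 21 windows and 6000 bp. The window of highest wild type HU signal in a stretch is called its summit. Summits 4 to 9 kb apart were paired. Of these stretches, 86 formed 43 pairs with summits 5400 to 7600 bp apart (median 6400 bp), and 23 stood alone. No list of origins was used here, and the pairs are described by position only. The midpoint of the pair, here the centre, lay between genes in 26 of 43 pairs (60.5%), against 26.6% of all window midpoints. For the summits themselves this was 34 of 109, and for members 27.5%. Genes are named below only as landmarks (build R64).

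In the HU block the signal of the paired stretches lay closer to the centre in the mutants without the Mrc1 and Cdc45 contacts. Averaged over the 43 pairs, the peak was 1600 ± 283 bp from the centre in the triple mutant and 1500 ± 141 bp in the double mutant (SD, n = 2 libraries here and below), against 3400 ± 0 bp in *pol1-1A* and 3300 ± 141 bp in wild type. Taken arm by arm, the highest window within 10 kb of the centre lay at a median of 1600 bp in every library of the triple and double mutants, against 3300 ± 141 bp in *pol1-1A* and 3250 ± 70.7 bp in wild type. The wild type distance, and the low wild type signal between the arms, follow from how pairs were defined. No mutant library was used for the choice, but *pol1-1A* lay close to wild type at the centres in the HU block (median ratio 1.01). The choice therefore also favours a low *pol1-1A* level at the centres.

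**Figure D1:**
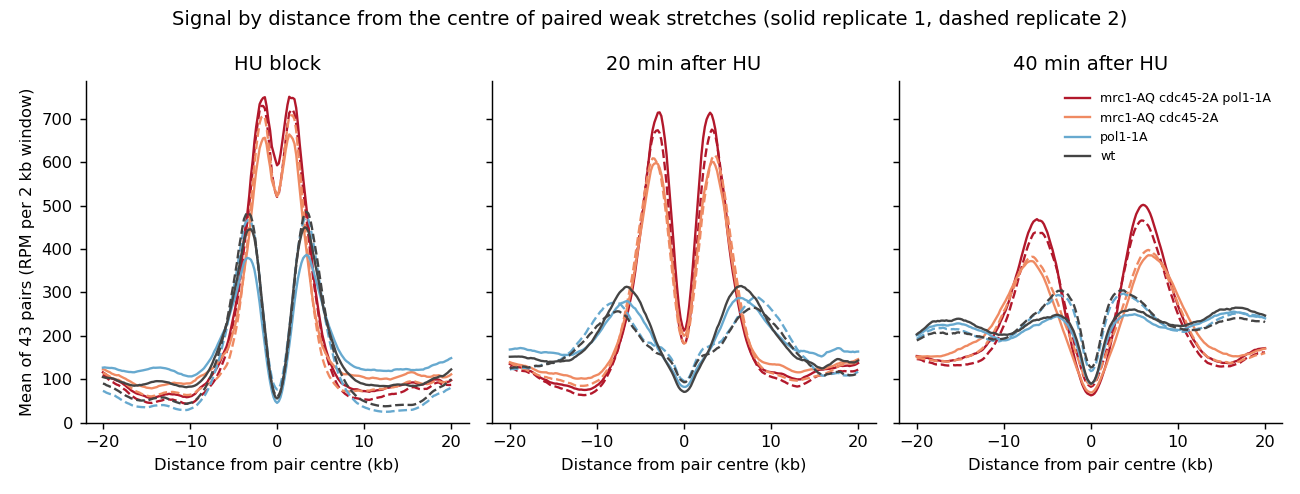
Mean TrAEL-seq signal (RPM per 2 kb window) against distance from the pair centre (kb) over 43 pairs, 1 panel for each time, with 1 line per library (solid, replicate 1; dashed, replicate 2). In the HU block the triple and double mutant peaks lie 1600 and 1500 bp from the centre, against 3400 bp in *pol1-1A* and 3300 bp in wild type; at 20 and 40 min the mutant peaks stand at 3100 and 3400 bp and then at 6000 and 6700 bp.

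The centres themselves carried signal in these mutants. Over the 43 pairs the centre window averaged 556 ± 51.4 RPM in the triple mutant and 524 ± 3.11 RPM in the double mutant in the HU block, against 61.2 ± 21.8 RPM in *pol1-1A* and 58.4 ± 3.63 RPM in wild type. The centre stood at 0.754 ± 0.0518 of the peak in the triple mutant and 0.767 ± 0.0418 in the double mutant, while it stood at 0.141 ± 0.0309 in *pol1-1A* and 0.125 ± 0.000568 in wild type. Every centre window was higher in both double mutant libraries than in both *pol1-1A* libraries (43 of 43, where 23.7% of all windows were), and the same held for the triple mutant (43 of 43, against 19.8% of all windows).

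By limma with Benjamini-Hochberg adjustment over 59363 windows, all 43 centres were higher in the double mutant than in *pol1-1A*, where 18.5% of all windows were called higher and 7.88% lower. The choice of centres favours this direction, so that this test and those of single centres in the HU block are not independent of it. The log2 difference ran from 2.4 to 3.86, with a median of 3.17, and the ratio of group means had a median of 8.76. Within replicate 1 the median ratio was 13.1 and within replicate 2 it was 7.14, with a mean over the centres of 45.8 RPM in the first and 76.6 RPM in the second *pol1-1A* library.

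**Figure D2:**
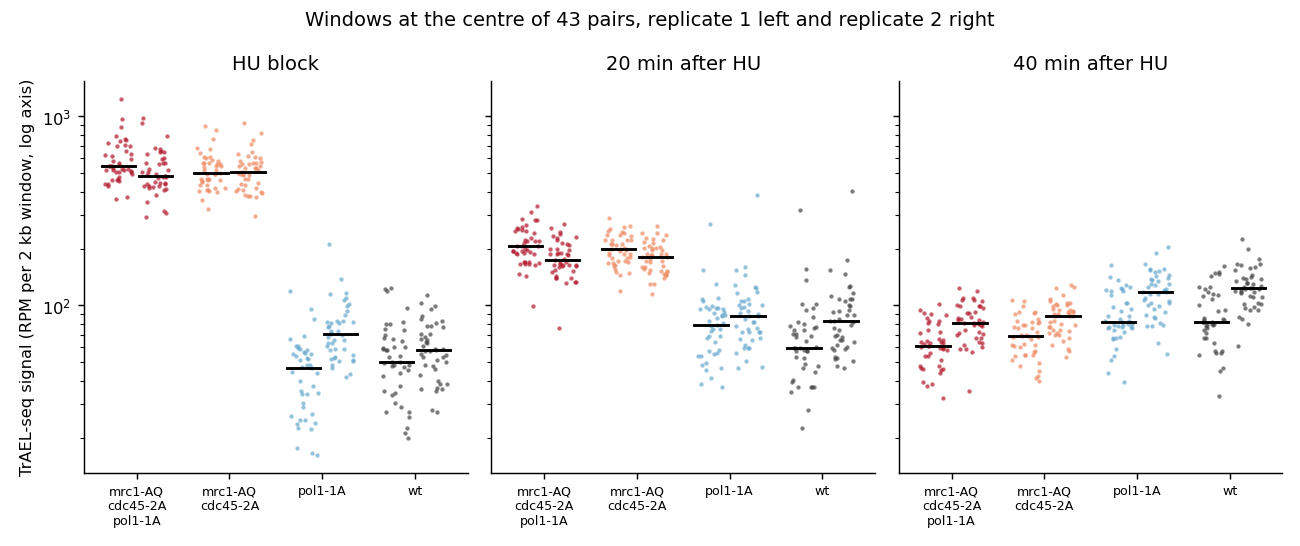
TrAEL-seq signal (RPM, log axis) in the window at the centre of each of the 43 pairs, by strain and time, with replicate 1 at the left and replicate 2 at the right of each strain and a bar at the median. In the HU block the medians are 547 and 487 RPM in the triple mutant and 500 and 506 RPM in the double mutant, against 46.8 and 70.8 RPM in *pol1-1A* and 50.4 and 57.9 RPM in wild type.

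The centre between UBP12, which encodes a ubiquitin-specific protease, and ELO1, a fatty acid elongase gene (chromosome X, 67700), showed the widest difference. It had 464 and 417 RPM in the double mutant in the HU block, against 16.7 and 51.4 RPM in *pol1-1A* (log2 difference 3.86, SE 0.46, adjusted p = 1.76e-06, limma). The groups lay far apart although the *pol1-1A* libraries differed between themselves. The triple mutant had 547 and 507 RPM there, and wild type 19.8 and 36.3 RPM. One arm of this pair has its summit over CDC6, which encodes a loader of the replicative helicase. Of the 24 listed genes of the pre-replicative complex, the helicase and the checkpoint, CDC6 was the only one that overlapped a member. The class overlapped 5 members (0.218%), against 0.884% of all windows. As all 5 windows lie at CDC6, these shares do not show whether the class is rarer among members.

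At chromosome XV 874200, beside TIM18, a gene of mitochondrial protein import, the centre had 559 and 564 RPM in the double mutant and 22.6 and 65.8 RPM in *pol1-1A* (log2 difference 3.82, SE 0.39, adjusted p = 4.04e-07, limma). The highest centre of the double mutant was in RRP15, a gene of ribosome biogenesis (chromosome XVI, 819000), with 887 and 920 RPM, against 56.6 and 212 RPM in *pol1-1A*. There the triple mutant reached 1240 and 977 RPM. The smallest difference was in the pair at LDH1 (chromosome II, 632700), with 519 and 537 RPM in the double mutant and 120 and 82.3 RPM in *pol1-1A* (log2 difference 2.4, SE 0.26, adjusted p = 6.13e-07, limma). Even this pair showed no overlap between the strains.

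The centre signal fell again after HU was removed. In the double mutant it was 524 ± 3.11 RPM in the HU block, 191 ± 12.9 RPM at 20 min and 78.4 ± 12.7 RPM at 40 min, and in the triple mutant 556 ± 51.4, 196 ± 22.2 and 73.1 ± 14.0 RPM. Between the HU block and 20 min, 40 of 43 double mutant centres fell and 0 rose (7.87% of all windows fell and 16.9% rose), and between 20 and 40 min again 40 of 43 fell and 0 rose (16.2% of all windows fell and 17.0% rose). In wild type the centres had 58.4 ± 3.63 RPM in the HU block, 82.2 ± 15.7 RPM at 20 min and 109 ± 26.5 RPM at 40 min, and 38 of 43 were higher at 40 min than at 20 min in the group means. The median log2 difference was 0.58 at the centres and 0.71 over all windows. By limma 8 centres (18.6%) were called higher and 3 lower (6.98%), where 30.6% of all windows were called higher and 14.7% lower (45.3% in all), so that the share of centres called was below that of all windows in both directions. The asynchronous preparations had 73.5 and 75.6 RPM as the median over centres.

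Over all 2298 members the HU block medians were 434 ± 10.7 RPM in the triple mutant, 360 ± 4.84 RPM in the double mutant, 341 ± 33.6 RPM in *pol1-1A* and 361 ± 12.8 RPM in wild type, against 124 and 136 RPM in the 2 asynchronous preparations. Behind the like medians of the double mutant and *pol1-1A*, 640 members were higher and 729 lower in the double mutant (27.9% and 31.7%), where 18.5% of all windows were higher and 7.88% lower (limma). This split depended on the scaling, with 440 higher and 891 lower when libraries were scaled to the reads inside windows and 188 higher and 856 lower after quantile normalization. In a fit of only these 2 groups, 37.7% of members were called, against 59.6% in the fit of all groups. The share of all windows called was not counted under these scalings or in the fit of 2 groups. In the fit of all groups, 14 of the 109 summits were higher and 15 lower. Members were chosen by wild type signal in the HU block, which *pol1-1A* followed (median ratio 0.941), and this choice favours lower calls here.

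The summits with the highest double mutant HU signal were picked by that level, which favours a higher value there than in *pol1-1A*, so that their differences are given as a description. The highest was on chromosome III at 162201-164200, over PMP1, which encodes a small regulator of the plasma membrane proton pump. It had 1169 and 1352 RPM in the double mutant, against 622 and 976 RPM in *pol1-1A* (log2 difference 0.69, SE 0.19, adjusted p = 0.00951, limma). The triple mutant, with 916 and 806 RPM, lay below both double mutant libraries, and wild type had 722 and 879 RPM. Of all summits this was the one where the triple mutant lay furthest below the double mutant, yet that difference did not pass the test (log2 difference -0.55, SE 0.19, adjusted p = 0.357, limma).

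The largest rise in this contrast was at MET3, the ATP sulfurylase gene of sulfate assimilation (chromosome X, 456201-458200). It had 848 and 905 RPM in the double mutant and 454 and 437 RPM in *pol1-1A* (log2 difference 0.98, SE 0.14, adjusted p = 1.36e-05, limma), with no overlap. COS111 (chromosome II, 629001-631000), YOR296W (chromosome XV, 870201-872200), the site of ECM38 and EXG1, genes of glutathione breakdown and of a cell wall glucanase (chromosome XII, 727401-729400), and PLB3, a phospholipase gene (chromosome XV, 305601-307600), followed with log2 differences of 0.93, 0.91, 0.85 and 0.74. RAD4, a gene of nucleotide excision repair (chromosome V, 501001-503000), followed PMP1 and MET3 in the double mutant with 826 and 911 RPM, but *pol1-1A* had 670 and 691 RPM there and the difference did not pass (log2 0.35, adjusted p = 0.146, limma).

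On the lower side, the largest differences were at FMO1 (log2 difference -1.76) and YNL035C (-1.36), thin stretches described further on. Of the paired arms, MSN4, a stress transcription factor gene (chromosome XI, 324601-326600), had 290 and 248 RPM in the double mutant and 540 and 699 RPM in *pol1-1A* (log2 difference -1.20, SE 0.19, adjusted p = 5.02e-05, limma). This arm belongs to 1 of the 2 pairs with the widest spacing, 7600 bp, and the centre of that pair, in MPE1, had 568 and 557 RPM in the double mutant and 47.5 and 81.7 RPM in *pol1-1A*. MRH1 (chromosome IV, 507401-509400) and VHR1 (chromosome IX, 250801-252800) had log2 differences of -0.93 and -0.89. MSS4 with YDR209C (chromosome IV, 869801-871800), a lone stretch of 2 windows, had -0.95. At each of these sites both double mutant libraries lay below both *pol1-1A* libraries.

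The sites of highest wild type HU signal were NPR3 (chromosome VIII, 60401-62400), NUP120, a nuclear pore gene (chromosome XI, 332201-334200), AIM14 (chromosome VII, 200201-202200), PMP1, SHY1 with the kinetochore gene DAM1 (chromosome VII, 717801-719800), and CLB6, an S phase cyclin gene (chromosome VII, 705001-707000). In *pol1-1A* NPR3 had 595 and 807 RPM and CLB6 had 599 and 890 RPM, while wild type had 772 and 910 RPM at NPR3 and 704 and 864 RPM at CLB6, so that its first library lay below both wild type libraries and its second did not. Over the 109 summits the ratio of *pol1-1A* to wild type had a median of 0.928, with 0.861 in replicate 1 and 0.982 in replicate 2.

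At 20 min after HU the weak sites were higher in the triple and double mutants than in the strains with both contacts. The median member had 559 ± 16.3 RPM in the triple mutant and 503 ± 5.69 RPM in the double mutant, against 200 ± 9.77 RPM in *pol1-1A* and 199 ± 23.3 RPM in wild type. The double mutant was higher than wild type in 1922 members (83.6%) and lower in 46 (2.00%), where 28.0% of all windows were higher and 13.8% lower (limma). The median log2 difference was 1.40 over members and 0.12 over all windows tested. Of the 109 summits, 102 were higher and 3 lower, with a median ratio of 3.43 (3.15 in replicate 1 and 3.82 in replicate 2). Both libraries lay above both wild type libraries in 2028 members for the double mutant (88.3%, against 44.4% of all windows) and in 2043 for the triple mutant (88.9%, against 34.3%). Strong windows were called higher in 798 of 2442 and lower in 26.

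**Figure D3:**
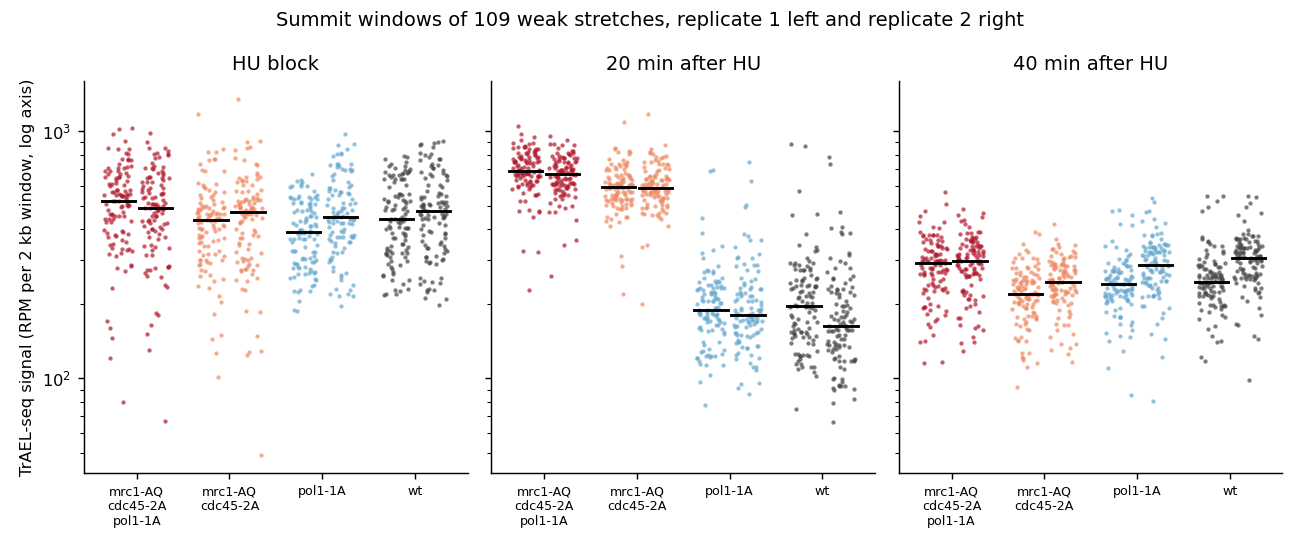
TrAEL-seq signal (RPM, log axis) in the 109 summit windows, by strain and time, with replicate 1 at the left and replicate 2 at the right of each strain and a bar at the median. At 20 min the medians are 693 and 668 RPM in the triple mutant and 593 and 586 RPM in the double mutant, above those of *pol1-1A* (189 and 180 RPM) and wild type (197 and 163 RPM). In the HU block and at 40 min the spreads of the summits overlap between strains. The triple mutant medians lie above the double mutant ones at both times. They are 524 and 489 against 437 and 469 RPM in the HU block, and 292 and 298 against 220 and 246 RPM at 40 min.

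SLN1, which encodes an osmosensing histidine kinase (chromosome IX, 69601-71600), had the largest difference. It had 533 and 507 RPM in the double mutant at 20 min and 74.9 and 66.4 RPM in wild type (log2 difference 2.86, SE 0.18, adjusted p = 7.85e-09, limma). The stretch is thin, with 4 windows, and its wild type HU level of 226 and 224 RPM is near the lower limit of the members. *pol1-1A* had 77.8 and 91.2 RPM, close to wild type, and the triple mutant 603 and 573 RPM.

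Both arms of the pair at UBP12 and ELO1 followed. The summit in UBP12 (chromosome X, 63401-65400) had 618 and 613 RPM in the double mutant and 111 and 99.4 RPM in wild type (log2 difference 2.54, SE 0.17, adjusted p = 8.07e-09, limma). The summit over CDC6 (chromosome X, 70001-72000) had 553 and 565 RPM in the double mutant and 102 and 89.3 RPM in wild type (log2 difference 2.54, SE 0.21, adjusted p = 1.73e-08, limma). UFD2, a gene of ubiquitin chain elongation (chromosome IV, 119401-121400), had 605 and 600 RPM against 109 and 109 RPM (log2 difference 2.46, SE 0.20, adjusted p = 2.13e-08, limma). At these 4 sites the wild type libraries were at or below the asynchronous level of a summit, whose median was 125 and 145 RPM in the 2 preparations.

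In the pair profiles the double mutant at 20 min took the place that wild type had held in HU. Its peak stood 3400 ± 283 bp from the centre with 606 ± 9.17 RPM, and that of the triple mutant 3100 ± 141 bp with 694 ± 28.4 RPM. The wild type peak stood at 7100 ± 707 bp with 287 ± 38.3 RPM, and that of *pol1-1A* at 7400 ± 1131 bp with 283 ± 0.586 RPM. At 3400 bp, where the wild type HU peak had been, wild type had 465 ± 28.4 RPM in the HU block, 181 ± 22.4 RPM at 20 min and 277 ± 38.7 RPM at 40 min. The double mutant had 406 ± 13.8, 605 ± 9.31 and 239 ± 17.7 RPM at the same place and times.

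At 40 min the order of the strains had changed. The median member had 309 ± 1.15 RPM in the triple mutant, 242 ± 18.8 RPM in the double mutant, 248 ± 33.3 RPM in *pol1-1A* and 260 ± 32.8 RPM in wild type. The double mutant was higher than wild type in 329 members (14.3%) and lower in 631 (27.5%), where 19.7% of all windows were higher and 12.5% lower (limma). Its median log2 difference was -0.13 over members and 0.24 over all windows. Of the summits, 5 were higher and 36 lower. After quantile normalization 546 members were higher and 1020 lower (68.1% called), with a median log2 difference of -0.41 over members and 0.23 over all windows. The share of all windows called under that scaling was not counted. Both double mutant libraries lay below both wild type libraries in 1019 members (44.3%, against 32.5% of all windows) and above them in 666 (29.0%, against 47.9%). The number called depended on the libraries, with 18.5% to 30.7% of members called when 1 library was left out, against 41.8% with all; it was 18.5% without the second wild type library, 20.6% without the first and 22.4% without the second double mutant library.

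LAP2, an aminopeptidase gene (chromosome XIV, 542801-544800), fell furthest. It had 92.2 and 116 RPM in the double mutant at 40 min, against 262 and 292 RPM in wild type (log2 difference -1.41, SE 0.18, adjusted p = 4.85e-05, limma). MET3 had 116 and 126 RPM against 297 and 322 RPM (log2 difference -1.35, SE 0.14, adjusted p = 7.13e-06, limma). PLB3 had 118 and 137 RPM against 289 and 369 RPM (log2 difference -1.35, SE 0.14, adjusted p = 7.13e-06, limma). The double mutant libraries lay well below the wild type ones at each of these 3 sites, and MET3 and PLB3 were among its 6 highest sites in HU.

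ADR1, a transcription factor gene (chromosome IV, 894601-896600), differed in that wild type reached its highest summit mean at 40 min there. The double mutant had 241 and 228 RPM and wild type 548 and 548 RPM (log2 difference -1.22, SE 0.19, adjusted p = 0.000204, limma). The other arm of the PLB3 pair, over CSI2 and TOP1, the topoisomerase gene (chromosome XV, 311601-313600), and the site of ECM38 and EXG1 had log2 differences of -1.05 and -1.04. Of the 36 summits called lower, 25 lay in pairs and 11 stood alone. The 5 summits called higher all stood alone, among them PMP1, with 323 and 349 RPM in the double mutant and 163 and 206 RPM in wild type (log2 difference 0.87, SE 0.19, adjusted p = 0.00362, limma), and AIM14 (log2 difference 0.55, SE 0.18, adjusted p = 0.0272, limma).

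**Figure D4:**
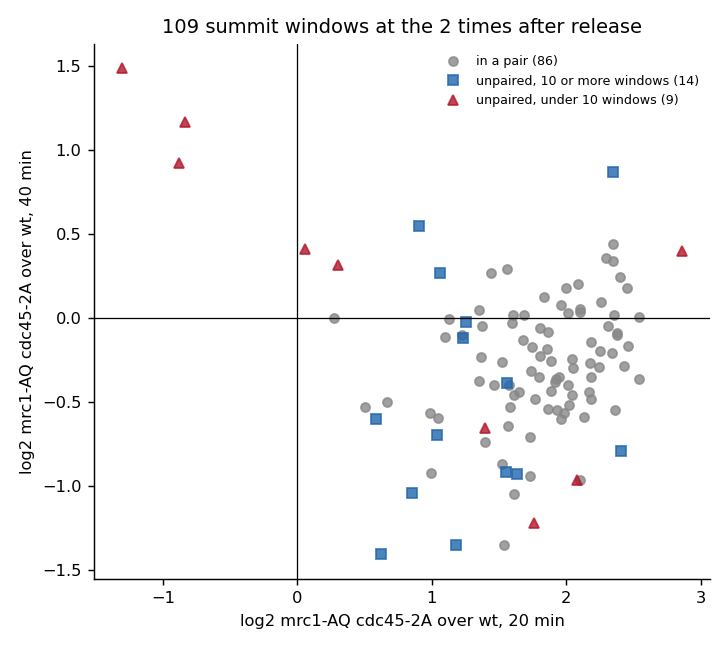
Log2 difference of the double mutant over wild type in the 109 summit windows at 20 min (x axis) and at 40 min (y axis), by whether the stretch is in a pair and how many windows it has. Most summits lie to the right of 0 at 20 min and below 0 at 40 min; 3 thin stretches at the upper left, at FMO1, NCA3 with ASF1, and YNL035C, show the opposite at both times.

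In the triple and double mutants the peaks of the pair profiles lay further out at 40 min than at 20 min. At 40 min the peak was 6000 ± 283 bp from the centre in the triple mutant, with 468 ± 23.5 RPM, and 6700 ± 141 bp in the double mutant, with 384 ± 7.90 RPM. A broad maximum lay at 3800 ± 0 bp in *pol1-1A*, with 271 ± 35.0 RPM, and at 3900 ± 707 bp in wild type, with 279 ± 36.4 RPM. It was flat, with 241 ± 7.16 RPM at 7000 bp in wild type, so that its position is poorly set. The triple and double mutant libraries did not overlap, the triple mutant peaks standing at 6200 and 5800 bp and those of the double mutant at 6800 and 6600 bp. Their median distance from the centre to the highest window of an arm was 6100 and 5900 bp in the triple mutant, against 7200 and 6800 bp in the double mutant. No test was made of these distances.

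Within strains the weak sites changed in opposite ways during the first 20 min. In *pol1-1A*, 1581 members fell and 116 rose between the HU block and 20 min (68.8% and 5.05%), where 10.2% of all windows fell and 19.5% rose (limma, 29.7% in all). Of the summits 98 fell and 3 rose, with a median log2 difference of -1.27. The choice of members by wild type signal in the HU block, which *pol1-1A* followed (median ratio 0.941), favours a fall in *pol1-1A*. In a fit of only these 2 groups, 23.3% of members were called, against 73.8% in the fit of all groups, and the share of all windows was not counted in that fit. In the double mutant, 1293 members rose and 360 fell (56.3% and 15.7%), where 16.9% of all windows rose and 7.87% fell, and of the summits 58 rose and 2 fell. The 2 that fell were MET3, with 566 and 515 RPM at 20 min against 848 and 905 RPM in the HU block, and the site of ECM38 and EXG1, with 497 and 467 RPM against 823 and 853 RPM. Of the strong windows, 2320 of 2442 fell in *pol1-1A* and 1314 fell in the double mutant.

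The test of the difference between these changes, added after the data were seen, called 1724 members higher and 33 lower in the double mutant than in *pol1-1A* of 2298, where 10.2% and 5.25% of all windows were called. The choice of members favours the higher calls, so that this test is not independent of it.

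Between 20 and 40 min most weak sites fell in the double mutant and more rose than fell in wild type. In wild type 998 members rose and 294 fell (43.4% and 12.8%), where 30.6% of all windows rose and 14.7% fell (limma), and of the summits 66 rose and 9 fell. The median log2 difference in wild type was 0.33 over members (0.11 in replicate 1 and 0.59 in replicate 2). Over all windows it was 0.71, so that the median member rose less than the median window. After quantile normalization 643 members rose and 429 fell, and the share of all windows called under that scaling was not counted. In the double mutant 1827 members fell and 29 rose (79.5% and 1.26%), where 16.2% of all windows fell and 17.0% rose, and 105 of 109 summits fell. The change differed between the double mutant and wild type in 115 members that were higher and 1696 that were lower (5.00% and 73.8%, against 11.8% and 15.7% of all windows; limma, a test added after the data were seen). Strong windows fell in both strains over this time, 2442 of 2442 in the double mutant and 2324 of 2442 in wild type.

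SLN1, UBP12 and CDC6 were among the weak sites that rose in wild type. SLN1 had 222 and 256 RPM at 40 min and 74.9 and 66.4 RPM at 20 min (log2 difference 1.74, SE 0.18, adjusted p = 1.62e-07, limma), UBP12 had 288 and 359 RPM at 40 min and 111 and 99.4 RPM at 20 min, and CDC6 had 254 and 338 RPM at 40 min and 102 and 89.3 RPM at 20 min. In the HU block SLN1 had 226 and 224 RPM, UBP12 had 258 and 245 RPM and CDC6 had 216 and 228 RPM. Both 40 min libraries lay above both HU block libraries at UBP12 and CDC6, while at SLN1 they overlapped. The steepest fall in the double mutant was at PLB3, with 118 and 137 RPM at 40 min and 834 and 747 RPM at 20 min (log2 difference -2.62, SE 0.14, adjusted p = 2.62e-09, limma).

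With *pol1-1A* alone, the weak sites had medians close to wild type after release. At 40 min no member was called between *pol1-1A* and wild type by limma or by edgeR on recovered reads, in either direction, and no member had an unadjusted p under 0.05 by limma (0% of all windows called, 724 with such a p). The median log2 difference was -0.08 over members, with a range from -0.39 to 0.19, and 0.05 over all windows. At 20 min both *pol1-1A* libraries were above both wild type libraries in 298 members (13.0%) and below them in 96 (4.18%), against 16.8% and 6.43% of all windows. At 40 min they were below them in 337 (14.7%, against 14.8%).

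In the *mrc1-AQ cdc45-2A* background, libraries with *pol1-1A* lay slightly higher at the weak sites in median at each time. The median ratio of the triple to the double mutant over members was 1.14 in the HU block, 1.11 at 20 min and 1.25 at 40 min. Strong windows had median ratios of 1.17, 1.12 and 1.10. In the HU block and at 20 min they were above 1 in both replicates (1.02 in replicate 2 at 20 min). At these times the shift was thus not particular to the weak sites. At 40 min the replicates of the strong windows differed in direction, with 1.24 in replicate 1 and 0.973 in replicate 2. The median over members was above 1 in both replicates at that time. Whether strong windows share the shift at 40 min is therefore not known. Both triple mutant libraries were above both double mutant libraries in 1462 members in the HU block (63.6%, against 10.6% of all windows) and in 1608 at 40 min (70.0%, against 18.3%). No window was called by limma in the HU block or at 40 min (0% of all windows in each, and 0 also by edgeR), with 459 and 829 members at an unadjusted p under 0.05. The median log2 difference over members was 0.20 in the HU block and 0.32 at 40 min, while over all windows it was -0.64 and -0.23. After quantile normalization, which brought the median over all windows to 0.00 in the HU block and 0.01 at 40 min, the member median was 0.08 in the HU block and 0.43 at 40 min. No member was called in the HU block under that scaling, while at 40 min 200 were higher and 22 lower (9.66%). In a fit of only these 2 groups, 10 members were called lower in the HU block (0.435%). With the library pool as a block, 143 members were called higher and 20 lower in the HU block, and 32 higher and 10 lower at 40 min. The share of all windows called was not counted under that scaling or in these 2 fits. Whether members differ there from all windows is therefore not known.

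Of the 43 centres, 15 were higher in both triple mutant libraries than in both double mutant libraries in the HU block, where 10.6% of all windows were. At 40 min 0 centres were, against 18.3% of all windows. At the summits the median ratio of the triple to the double mutant was 1.15 in the HU block, 1.14 at 20 min and 1.25 at 40 min. A lower level over the genome moved with it: the median over all windows was 28.0 ± 8.07 RPM in the triple mutant and 52.3 ± 15.2 RPM in the double mutant in the HU block. Its part in the difference was not tested.

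Among the thin stretches, 3 ran opposite to most summits at both times after release. FMO1, a flavin-containing monooxygenase gene (chromosome VIII, 454401-456400, 2 windows), had 101 and 49.0 RPM in the double mutant in the HU block, 219 and 200 RPM at 20 min and 391 and 422 RPM at 40 min. Wild type had 261 and 254 RPM, 571 and 471 RPM, and 141 and 148 RPM at these times. These 2 groups did not overlap at any time. The double mutant was lower than wild type at 20 min (log2 difference -1.31, SE 0.25, adjusted p = 0.000249, limma) and higher at 40 min (log2 difference 1.49, SE 0.25, adjusted p = 0.000439, limma).

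NCA3 with the histone chaperone gene ASF1 (chromosome X, 195001-197000, 4 windows), and YNL035C (chromosome XIV, 568601-570600, 3 windows) showed the same course. At 20 min NCA3 with ASF1 had 463 and 440 RPM in the double mutant and 874 and 790 RPM in wild type (log2 difference -0.88, SE 0.16, adjusted p = 0.000165, limma), and YNL035C had 429 and 477 RPM against 888 and 735 RPM (log2 difference -0.84, SE 0.22, adjusted p = 0.00444, limma). At 40 min their log2 differences were 0.92 and 1.17. These wild type values at 20 min were the highest of any summit. Each of the 3 stretches lay 10.2 kb from a strong window, just beyond the limit of the rule, as did the stretches at COS111 and AUS1, while the median summit lay 49.0 kb away.

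COS111, part of the pair at LDH1, had the smallest difference among paired stretches at 20 min. It had 510 and 501 RPM in the double mutant at 20 min and 456 and 383 RPM in wild type (log2 difference 0.27, SE 0.17, adjusted p = 0.225, limma). The centre of this pair was the only one called lower in the double mutant at 20 min, with 212 and 202 RPM against 322 and 403 RPM in wild type (log2 difference -0.80, SE 0.26, adjusted p = 0.0158, limma). Also not called higher were the summits at ACH1, at MSS4 with YDR209C and at GCD6. Among the 14 lone stretches of 10 or more windows, 14 were higher in the double mutant at 20 min, as were 84 of the 86 paired ones, while among the 9 of fewer windows 4 were higher and 3 lower. Of all windows 28.0% were higher and 13.8% lower in this comparison. The 9 thin stretches are too few to describe a class.

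Strong sites, treated in the same way, gave 71 pairs from 165 stretches. Their peak in the HU block lay 2700 ± 424 bp from the centre in the triple mutant, 2300 ± 141 bp in the double mutant, 3200 ± 283 bp in *pol1-1A* and 3100 ± 141 bp in wild type. The centre stood at 0.374 ± 0.0475 of the peak in the triple mutant, 0.487 ± 0.000311 in the double mutant, 0.118 ± 0.00885 in *pol1-1A* and 0.140 ± 0.00917 in wild type. In absolute terms the double mutant had 524 ± 3.11 RPM at the centre of weak pairs and 506 ± 30.5 RPM at that of strong ones, while its peaks had 684 ± 33.2 RPM in weak pairs and 1040 ± 62.0 RPM in strong ones. Whether weak and strong pairs differ was not tested.

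The wild type peak of strong pairs was at 7100 ± 990 bp at 20 min and at 16800 ± 566 bp at 40 min. At 3400 bp from the centre of strong pairs wild type had 1305 ± 178 RPM in the HU block, 442 ± 98.7 RPM at 20 min and 125 ± 10.2 RPM at 40 min, so that it was lowest at 40 min, where the weak pairs were above their level at 20 min. The double mutant peak of strong pairs was at 4500 ± 141 bp at 20 min and at 8300 ± 424 bp at 40 min.

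Of the gene classes listed, a tRNA gene overlapped 174 members (7.57%), against 4.58% of all windows. It overlapped 5 of the 109 summits, a share close to that of all windows. Of 10 histone genes only HTZ1, which encodes the variant H2A.Z, overlapped members, in 5 windows (0.218%, against 0.159% of all windows).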

How the data were processed

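TrAEL-seq libraries of 24 HU-treated cultures and 6 asynchronous spike-ins were analysed. Per the methods and labels, the authors trimmed reads (Trim Galore 0.6.5), aligned them to build R64 (Bowtie2 2.4.1), removed duplicates, kept the terminal nucleotide, and in SeqMonk summed both strands in overlapping 2000 bp windows. The deposited window signal is in RPM of mapped reads, with both strands together. Whole reads were recovered from its steps: 100% of values lay within 0.01 of a whole read.

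The members, lists, limits and tests were chosen with earlier results of these data known. Log2(RPM + 1) of the 24 libraries was fitted with limma 3.58.1 (trend, 12 groups of 2; R 4.3.3); 940 windows without reads were left out, and p-values over 10 comparisons were each adjusted (Benjamini-Hochberg) over 59363 windows, called under 0.05. Fold changes are on that scale. Neighbouring windows overlap, so counts of windows are not independent. The script was tested on simulated data. Sites were named by rank: the 6 highest in HU in wild type and double mutant, up to 6 called each way in the double mutant against wild type at 40 min and against *pol1-1A* in HU, and up to 4 in other strain comparisons; others, such as centres and exceptions, were named after their values were seen. The study described 2 biological repeats; p-values measure the spread between these libraries. Libraries of 1 time and number shared a pool by label: their deviations from group means correlated with r of 0.0447 to 0.794 over 18 pairs of groups, and the pool was used as a block in an alternative fit, with edgeR 4.0.16 on recovered reads as another. Origin and centromere lists and DNA sequence were not used here.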

Additional observations from a re-analysis of the deposited data

Results flagged for a closer look

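The difference between the double mutant and wild type changed between 20 and 40 min in 105 of the 109 summits by a limma test of that change (adjusted p under 0.05; 27.5% of all windows were called). It became lower in 102, with a median log2 change of -2.07 over the summits, and higher in 3, those at FMO1, at NCA3 with ASF1 and at YNL035C. The test was added after the data were seen.

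The change from the HU block to 20 min differed between the double mutant and *pol1-1A* in 99 of the 109 summits, all 99 in favour of the double mutant. The median log2 difference was 1.75 over the summits, and 15.5% of all windows were called (10.2% higher and 5.25% lower). At the pair centres the same test called 37 of 43, all lower in the double mutant, with a median of -2.03. Summits and centres were placed by wild type signal in the HU block, which *pol1-1A* followed (median ratios 0.928 and 1.01). Their choice favours these directions, so that the test is not independent of it. This test, too, was added after the data were seen.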

How the results depend on the processing

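Results were recomputed with another pseudocount, a filter on low windows, 2 other scalings, blocks, fits of 2 groups, windows without overlap, edgeR on recovered reads, and each library left out. No median difference turned its direction. Of the recomputed values, 121 stayed near the main value, 17 moved away from it and 5 went from 0 members called to some. Except with edgeR, the share of all windows called was not counted in the recomputed fits. After quantile normalization the share of members called was 68.1% for the double mutant against wild type at 40 min and 9.66% for triple over double mutant at 40 min. With the pool as a replicate block triple over double mutant had 7.09% in the HU block and 1.83% at 40 min. In the other comparisons a block kept the share of members called near that of the main fit, and single calls were not compared. With only the 2 groups compared in the fit it had 0.435% in the HU block, the double mutant against *pol1-1A* in HU had 37.7%, and *pol1-1A* at 20 min against HU had 23.3%. Leaving out 1 library gave 18.5% to 30.7% for the double mutant against wild type at 40 min and 0% to 0.0435% for triple over double mutant in HU (without the second double mutant library). Scaled to reads in windows, the median log2 difference over members was -0.0517 for *pol1-1A* against wild type at 40 min, -0.33 for the double mutant against *pol1-1A* in HU, -1.05 for *pol1-1A* and 0.61 for the double mutant at 20 min against HU. After quantile normalization these medians were -0.0359 for *pol1-1A* against wild type at 40 min, -0.41 for the double mutant against wild type at 40 min, 0.0811 and 0.43 for triple over double mutant in HU and at 40 min, -0.38 for the double mutant against *pol1-1A* in HU, -1.10 for *pol1-1A* at 20 min against HU and -1.69 for the double mutant at 40 against 20 min. Under this scaling the median over all windows moved by over 0.1 for triple over double mutant at both times, in HU from -0.64 to 0.00. For the double mutant against wild type at 40 min it stayed near its main value of 0.24. The causes were not tested. With 1 wild type HU library the rule gave 2840 or 1976 members, and with a lower limit of 2 it gave 1674.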
